A study of Homo sapiens with 2 samples.

Results

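The 10 genes described here, DAZL, SYCP1, SYCP3, SYCE1, HORMAD1, STAG3, SMC1B, SPO11, DMC1 and MEIOB, encode proteins of germ cells and of meiosis. They were chosen by name from 20163 protein-coding genes, and every CpG dinucleotide within 2000 bp of their transcription start site (TSS) or in their gene bodies was taken, which gave 5275 of the 28217009 CpG dinucleotides listed on nuclear chromosomes. The whole methylome had been read by whole-genome bisulfite sequencing in 2 human acute myeloid leukemia (AML) cell lines, OCI-AML3, whose DNA methyltransferase gene DNMT3A is mutant, and OCI-AML5, in which it is wild type. Both are established lines grown untreated, and each gave 1 library. The tests below therefore cover the sampling of reads within these libraries, and the DNMT3A state cannot be told apart from any other difference between the lines.

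Meiosis is the pair of divisions that makes eggs and sperm. Its chromosomes are held along an axis of meiotic cohesin and HORMA domain proteins, cut by a dedicated nuclease, repaired with the help of a meiotic recombinase, and zipped together by the synaptonemal complex. Somatic cells mostly do without these proteins, and many of their genes carry CpG-rich promoters that are methylated in somatic tissue, where CpG-rich promoters are otherwise mostly free of methylation.

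Bisulfite converts unmethylated cytosine, so each read that covers a CpG calls it methylated or unmethylated, and the methylation level is the methylated percentage of those calls. The files held 902802339 calls for OCI-AML3 and 894828667 for OCI-AML5, with a median of 27 and 30 calls per CpG. At those depths a CpG without a methylated call can still have a level of up to 11.1% or 10%. Levels given for a region are means over its CpG dinucleotides with more than 5 calls in both lines, which 4670 of the 5275 had. The mean level over the genome was 67.6% in OCI-AML3 and 75.2% in OCI-AML5. Of 4 myeloid genes used to check the cell type, PTPRC, SPI1 and CD33 had promoter means from 11.5% to 36.5% in both lines and MPO had 93.2% and 90.3%. No RNA was measured, so whether the 10 genes are silent could not be checked here.

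The 10 promoters did not share a single state. Over 4 kb centred on the most upstream annotated TSS (2000 bp on either side), 5 of 10 genes (SYCP1, SYCP3, SYCE1, HORMAD1 and SPO11) had means above 66% in both lines, against 19.6% of 19667 protein-coding promoters, and none was below 20% in both, where 22.7% of promoters were. Within 500 bp of the canonical TSS, the start of the transcript that the annotation ranks first, a window chosen after seeing the data, the levels spread further. DAZL, SYCP3, SYCE1, HORMAD1 and SPO11 were above 66% in both lines there, where 13.0% of 17523 promoters were, and DMC1 was below 20% in both, where 63.6% of promoters were. SYCP1, MEIOB, STAG3 and SMC1B lay between. Such genes are commonly grouped as silenced by promoter methylation. SYCP3, SYCE1, HORMAD1 and SPO11 had a methylated promoter in both lines by both windows, SYCP1 only by the wider one and DAZL only around its canonical start. Counts of genes above 66% were 6 over 4 kb around the canonical TSS and 4 of 9 within 500 bp of the most upstream one. The starts of DMC1 and, at its most upstream TSS, STAG3 (12.0% and 13.2% within 500 bp) went against that description. So did the 500 bp before the canonical TSS of MEIOB, SMC1B and STAG3. MEIOB had 5.43% in OCI-AML3 and 3.37% in OCI-AML5 there, SMC1B 4.16% and 10.9%, and STAG3 17.5% and 14.1%. Some of these windows are shared with a gene read in the opposite direction. GPC2 starts 182 bp before the most upstream TSS of STAG3, and RIBC2 starts 94 bp before the canonical TSS of SMC1B.

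**Figure D1:**
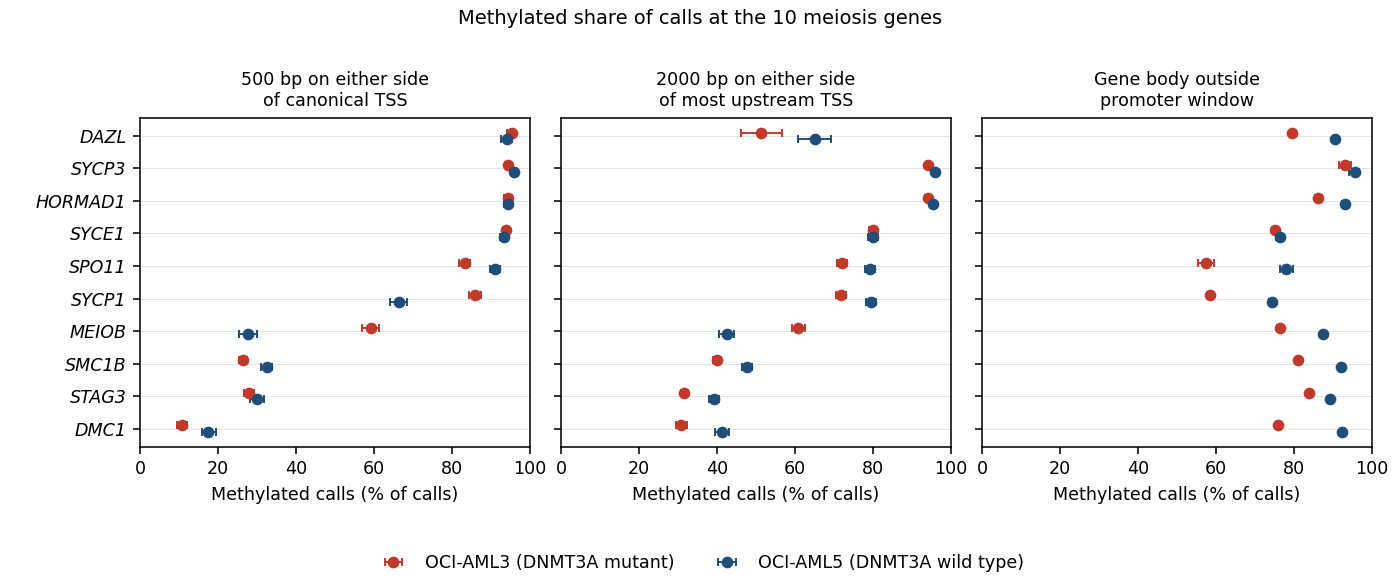
Methylated share of calls (x axis, %) of the 10 genes in OCI-AML3 (red) and OCI-AML5 (blue) in 3 regions; bars are Wilson 95% intervals, which cover the sampling of calls only. Close to the canonical TSS the genes run from DMC1 at 10.8% to DAZL at 95.3% in OCI-AML3 and from DMC1 at 17.6% to SYCP3 at 96.0% in OCI-AML5, and in the gene bodies every red point lies to the left of its blue point.

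Ordered by the methylated share of calls within 500 bp of the canonical TSS, OCI-AML3 placed DAZL, HORMAD1, SYCP3 and SYCE1 first, at 95.3% to 93.9%, with Wilson 95% intervals that overlapped from each gene to the next. SYCP1 (86.0%) and SPO11 (83.3%) followed with overlapping intervals, then MEIOB (59.2%), STAG3 (27.9%) and SMC1B (26.4%), the last pair again overlapping, and DMC1 (10.8%). In OCI-AML5 SYCP3 led at 96.0%, HORMAD1, DAZL and SYCE1 overlapped one another at 94.3% to 93.3%, and SPO11 followed at 91.1%. SYCP1 stood at 66.4%, below SPO11, and SMC1B (32.5%), STAG3 (29.9%) and MEIOB (27.6%) overlapped from neighbour to neighbour above DMC1 (17.6%).

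The sequences before 3 of the starts show CpG-rich DNA that carried opposite states in the same libraries. How alike they are in make-up was not tested. They are written from GRCh37 on the strand of the gene, 5′ to 3′, with each CpG in capitals. The first lies just before the canonical TSS of DAZL at chr3:16646931-16647080 (minus strand), the second before SYCP3 at chr12:102133251-102133355 (minus strand), cut short where an exon of CHPT1 begins, and the third before DMC1 at chr22:38966210-38966359 (minus strand).
DAZL: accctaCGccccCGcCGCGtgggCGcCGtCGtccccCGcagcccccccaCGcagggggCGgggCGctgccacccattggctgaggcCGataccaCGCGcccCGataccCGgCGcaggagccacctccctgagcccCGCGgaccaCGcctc
SYCP3: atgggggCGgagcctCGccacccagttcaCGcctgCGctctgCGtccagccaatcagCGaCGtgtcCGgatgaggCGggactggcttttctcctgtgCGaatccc
DMC1: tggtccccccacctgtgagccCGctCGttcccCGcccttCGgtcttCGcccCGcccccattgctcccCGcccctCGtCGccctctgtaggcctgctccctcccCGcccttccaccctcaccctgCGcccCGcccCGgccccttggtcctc
The DAZL stretch had a mean of 95.9% in OCI-AML3 and 92.6% in OCI-AML5 over the 12 of its 20 CpG dinucleotides with enough calls, and the SYCP3 stretch had 96.8% and 96.4% over 10. In the DMC1 stretch 11 of 13 CpG dinucleotides could be used, and their mean was 0.293% in OCI-AML3, with no methylated call among 89 in OCI-AML5. No CpG in the 3 stretches passed Fisher's exact test between the lines.

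DAZL, an RNA-binding protein that germ cells need to form, lies at chr3:16628299-16711813 on the minus strand. Its most upstream TSS and its canonical TSS (position 16646930) are 64883 bp apart, and the level depended on which was used. The most upstream start is CpG-poor, with 16 usable CpG dinucleotides at a mean of 57.9% in OCI-AML3 and 68.7% in OCI-AML5. Within 2000 bp of the canonical start 124 CpG dinucleotides averaged 93.5% in both lines, and within 500 bp of it 54 averaged 95.4% and 93.2%. In the 500 bp before that start 18 of 30 CpG dinucleotides could be used, at mean depths of 9.77 and 8.40 calls over all 30.

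Of the synaptonemal complex proteins, SYCP1 spans the gap between paired chromosomes as the transverse filament. The gene lies at chr1:115397484-115537991 on the plus strand, and its mean over the whole 4-kb window, 70.2% in OCI-AML3 and 75.0% in OCI-AML5, hid opposite differences on the flanks of the start. From -1500 to -1001 bp, counted from the TSS, the mean was 38.5% in OCI-AML3 and 92.0% in OCI-AML5. In the 500 bp just before the TSS both lines were methylated, at 93.0% and 94.2%. Over the first 500 bp of the gene the order turned round, with 78.6% in OCI-AML3 and 45.5% in OCI-AML5. From -1349 to -908 bp, 16 consecutive CpG dinucleotides were each lower in OCI-AML3, ranging from 0% to 71.4% with a median of 26.8%, against 71.8% to 100% with a median of 94.4% in OCI-AML5. Within intron 1, 10 consecutive CpG dinucleotides from 115397837 to 115397912 were each higher in OCI-AML3, at 58.3% to 97.3% against 7.41% to 32.1%. The lines did not overlap at these 10, and the largest adjusted p among them was 0.00289 (two-sided Fisher's exact test, Benjamini-Hochberg over all nuclear CpG dinucleotides). Each CpG of both runs had been picked for passing that test in that direction, so these values are no separate support. Consecutive, here and below, means among the CpG dinucleotides with enough calls.

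SYCP3, a lateral element protein that lines each chromosome axis (chr12:102122426-102133250, minus strand), was methylated throughout its promoter. Its mean was 93.5% in OCI-AML3 and 95.9% in OCI-AML5 over 127 CpG dinucleotides, of which 124 and 127 were above 66%. Only 3 of the 127 were called, all lower in OCI-AML3. The start lies inside CHPT1, a gene read on the opposite strand.

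SYCE1, of the central element (chr10:135367405-135383339, minus strand), has its canonical TSS at 135379087, 4252 bp from the most upstream one. Around the most upstream start 108 of 210 CpG dinucleotides could be used and averaged 74.6% in OCI-AML3 and 77.5% in OCI-AML5. Within 500 bp of the canonical start all 74 could be used, with means of 93.3% and 93.1%, 1 CpG called higher and 1 lower. A long noncoding RNA is annotated in the opposite direction from -214 bp.

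HORMAD1, an axis protein that is removed as chromosomes pair (chr1:150670536-150693371, minus strand), showed the same state in both lines. Its 88 usable promoter CpG dinucleotides averaged 93.4% in OCI-AML3 and 94.9% in OCI-AML5, and 1 was called. In the 500 bp after the TSS the means were 96.3% and 94.4%.

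The genes of the meiotic cohesins, the ring-shaped complexes that hold sister chromatids together, passed from unmethylated to methylated DNA at the start itself. STAG3 (chr7:99775186-99812010, plus strand, canonical TSS at 99775541) had 0.319% in OCI-AML3 and 0.230% in OCI-AML5 from -1000 to -501 bp, counted from the canonical TSS. The start of GPC2, a gene read in the opposite direction, lies in that zone, at -537 bp. Over the first 500 bp of STAG3 the mean was 66.2% in OCI-AML3 and 83.2% in OCI-AML5, and over the next 500 bp it was 93.1% and 94.3%. At the boundary the lines differed in both directions within 150 bp. From 99775436 to 99775493, before the canonical start, 7 consecutive CpG dinucleotides were higher in OCI-AML3, at 33.0% to 53.7% against 1.82% to 24.5%. From 99775564 to 99775583, in exon 1, 4 were lower, at 28.1% to 43.6% against 73.3% to 81.8%. Neither run had overlapping levels between the lines, but each of their CpG dinucleotides had been picked for passing the test. Depth over the STAG3 promoter was 79.0 calls per CpG in OCI-AML3 and 38.4 in OCI-AML5, and its part in these differences was not tested.

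SMC1B (chr22:45739944-45809500, minus strand) shares its start with RIBC2, which is read the other way from position 45809574. The 500 bp before the canonical TSS, which contain the RIBC2 start, had 4.16% in OCI-AML3 and 10.9% in OCI-AML5, and the 500 bp after it had 83.3% and 77.8%. Just before the TSS, from 45809484 to 45809502, 5 consecutive CpG dinucleotides were lower in OCI-AML3, at 0% to 10.1% against 30.1% to 38.6%. In exon 1, from 45809396 to 45809408, 3 were higher, at 75.3% to 91.5% against 48.3% to 60.7%. The rise from the unmethylated to the methylated side was thus steeper in OCI-AML3, while the mean over 4 kb was 61.6% and 61.7%.

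Of the recombination genes, SPO11, whose protein makes the double-strand breaks that start exchange, had, with SYCP1, the lowest gene body share of methylated calls in OCI-AML3. At chr20:55904859-55919050 (plus strand), its promoter mean was 67.3% in OCI-AML3 and 80.0% in OCI-AML5, with 16 of 82 CpG dinucleotides called lower and 2 higher. The 500 bp before the TSS were at 86.9% and 93.1%. From 1000 to 1499 bp after the TSS the level dropped to 1.78% in OCI-AML3 and 17.6% in OCI-AML5 over 6 CpG dinucleotides.

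DMC1, the meiotic recombinase (chr22:38914953-38966209, minus strand), had the lowest level of the 10 within 500 bp of the canonical TSS. From -500 to -1 bp, counted from the canonical TSS, the means over 37 CpG dinucleotides were 0.280% in OCI-AML3 and 0.246% in OCI-AML5. The level rose into the gene, to 19.7% and 25.2% over the first 500 bp and 81.3% and 79.7% over the next. The mean over the 4-kb window was 28.8% and 32.8%.

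MEIOB, a single-stranded DNA-binding protein that works with DMC1, was the only gene of the 10 with a higher promoter mean in OCI-AML3 over the 4-kb window. The gene lies at chr16:1883987-1922179 on the minus strand, and its start is inside an unnamed protein-coding gene of the same strand. Its promoter mean was 60.0% in OCI-AML3 and 46.6% in OCI-AML5. Before the start, from -500 to -1 bp, both lines were low, at 5.43% and 3.37%. Over the first 500 bp of the gene OCI-AML3 had 92.7% and OCI-AML5 48.9%. A run of 26 consecutive tested CpG dinucleotides in exon 1, from 1922021 to 1922166, was higher in OCI-AML3. The levels were 45.5% to 100% with a median of 96.0%, against 0% to 74.1% and a median of 36.3%. Each of these CpG dinucleotides had been picked for passing the test in that direction. The run was the longest in either direction among the 10 genes.

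**Figure D2:**
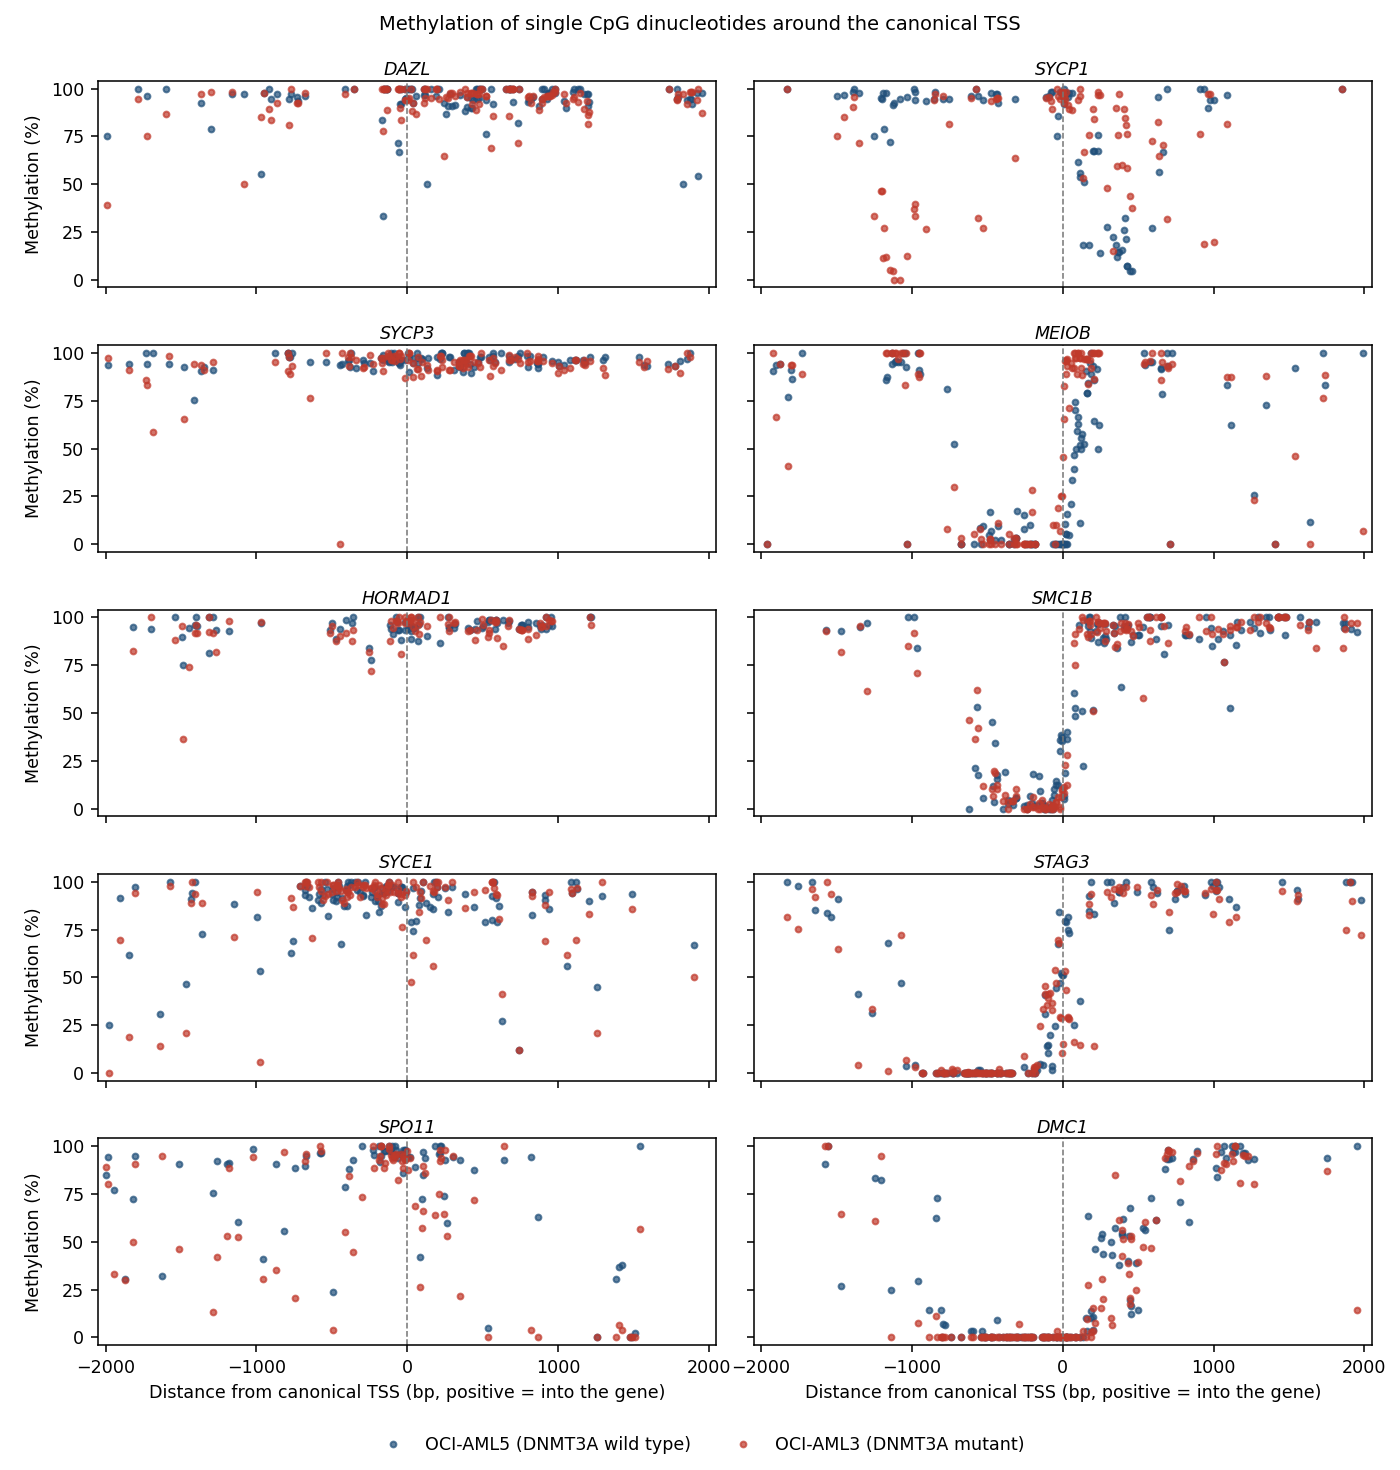
Methylation level (y axis, %) of each CpG with more than 5 calls in both lines, by distance from the canonical TSS (x axis, bp; dashed line at the TSS), for OCI-AML3 (red) and OCI-AML5 (blue). DAZL, SYCP3, HORMAD1 and SYCE1 stay near the top across the TSS. MEIOB, SMC1B, STAG3 and DMC1 rise into the gene from a low stretch, and their levels are higher again farther upstream. In SYCP1 red lies below blue upstream and above it in the first 500 bp.

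A step from unmethylated to methylated DNA was present in MEIOB, SMC1B, STAG3 and DMC1. How many protein-coding genes have such a step was not computed, so whether it is particular to these genes was not tested. Low starts and methylated bodies are common. Within 500 bp of the canonical TSS 63.6% of 17523 promoters were below 20% in both lines. The median gene body had 81.4% in OCI-AML3 and 88.4% in OCI-AML5. In DMC1 the step lay inside the gene and not at the start. Its first 500 bp had 19.7% in OCI-AML3 and 25.2% in OCI-AML5, and the next 500 bp 81.3% and 79.7%. MEIOB, SMC1B, STAG3 and DMC1 each had under 20% in both lines over the 500 bp before the canonical TSS. Farther upstream, from -2000 to -1501 bp, the levels were high again, over few CpG dinucleotides. DMC1 had 100% in OCI-AML3 and 95.5% in OCI-AML5 there over 2, and SMC1B 93.1% and 93.5% over 1. STAG3 had 89.8% and 91.5% over 6, and MEIOB 72.3% and 79.2% over 8. For SMC1B the level 500 to 999 bp into the gene was 93.3% in OCI-AML3 and 93.8% in OCI-AML5, and for MEIOB it was 86.0% and 85.4%. From 1000 to 1499 bp MEIOB was lower again, at 57.2% and 48.9% over 5 CpG dinucleotides. In SYCP1 and MEIOB the lines differed in the first 500 bp, where OCI-AML3 was the higher. These were the 2 genes whose mean within 500 bp of the canonical TSS was at least 20 percentage points higher in OCI-AML3, a size reached by 3.42% of protein-coding promoters. SYCP1 had 83.0% in OCI-AML3 and 60.3% in OCI-AML5, and MEIOB had 54.1% and 28.7%. None of the 10 was lower by as much, where 8.77% of promoters were. Over the 4-kb window none of the 10 reached 20 points in either direction, against 8.61% of promoters lower and 1.79% higher.

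Of the 1041 promoter CpG dinucleotides tested in the 10 genes, 88 (8.45%) were called lower in OCI-AML3 and 73 (7.01%) higher at an adjusted p of 0.05 (two-sided Fisher's exact test). Over all protein-coding promoters 13.1% were lower and 5.10% higher. Within 500 bp of the canonical TSS 28 of 622 (4.50%) were lower and 64 (10.3%) higher, against 8.91% and 4.51% around all canonical starts, and 19 of the higher ones belonged to SYCP1 and 26 to MEIOB. CpG dinucleotides of one promoter share reads and are not replicates. Calls of the same direction formed 55 runs of 3 or more consecutive tested CpG dinucleotides, 49 lower and 6 higher in OCI-AML3. The 6 higher runs all started within 2000 bp of a canonical TSS, in SYCP1 (3), MEIOB, STAG3 and SMC1B, and 7 of the 49 lower runs did. Over all protein-coding genes, with a run in overlapping genes counted in each, 16.2% of 202538 runs were higher, and 35.3% of the higher and 18.7% of the lower runs started that near. SYCP3 had no run.

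Of short motifs searched on both strands from 250 bp before to 50 bp after the canonical TSS, GCGGGAA, a core that E2F factors bind, was present in 6 of the 10 genes (HORMAD1, SMC1B, SPO11, STAG3, SYCE1 and SYCP1) and in 8.64% of 19862 promoters. The E-box CACGTG was in STAG3 and SYCE1 and in 8.77% of promoters. Both shares include CpG-poor promoters, whereas most of the 10 are CpG-dense by the definition given further below. A share over CpG-dense promoters alone was not computed. These letters describe the sequence and are not evidence that a factor binds. Each motif holds a CpG, so its own methylation could be read. The stretches below, of 4 genes on the strand of the gene, carry the motif in capitals, written TTCCCGC where it lies on the opposite strand. They are chr10:135379213-135379272 (SYCE1, minus strand), chr1:150693397-150693446 (HORMAD1, minus strand), chr20:55904819-55904858 (SPO11, plus strand) and chr22:45809500-45809573 (SMC1B, minus strand, the whole gap up to the RIBC2 start).
SYCE1: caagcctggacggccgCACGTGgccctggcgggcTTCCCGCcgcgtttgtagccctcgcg
HORMAD1: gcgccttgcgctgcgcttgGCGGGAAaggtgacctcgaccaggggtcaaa
SPO11: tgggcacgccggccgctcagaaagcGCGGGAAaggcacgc
SMC1B: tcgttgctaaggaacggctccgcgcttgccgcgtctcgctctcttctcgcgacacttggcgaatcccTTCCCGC
The CpG inside GCGGGAA was methylated in 94.8% and 94.4% of calls at SYCE1, in 100% and 93.6% at HORMAD1 and in 93.0% and 97.9% at SPO11, for OCI-AML3 and OCI-AML5 in that order. At SYCP1 it had 89.5% and 97.9%. At SMC1B none of 103 calls was methylated in OCI-AML3 and 26 of 73 were in OCI-AML5 (35.6%, adjusted p = 2.51e-10 by Fisher's exact test). At STAG3 7 of 68 calls (10.3%) were methylated in OCI-AML3 and 22 of 43 (51.2%) in OCI-AML5 (adjusted p = 5.26e-05, Fisher's exact test). The CpG in the E-box of SYCE1 had 88.1% and 97.0%, and that of STAG3 had 4.04% and 1.56%. The 6 motif CpG dinucleotides were thus high in both lines in SYCP1, HORMAD1, SYCE1 and SPO11 and differed by the test in SMC1B and STAG3.

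The gene bodies, taken from the most upstream TSS to the end without the promoter window, were lower in OCI-AML3 in all 10 genes, as 92.9% of 18292 gene bodies were. The median difference (OCI-AML3 minus OCI-AML5) was -11.1 percentage points in the 10 genes and -4.93 over all genes. None reached 20 points, a fall seen in 7.58% of gene bodies. SPO11 came nearest, with 58.5% in OCI-AML3 and 77.9% in OCI-AML5, followed by SYCP1 with 54.3% and 73.5%. DMC1 had 76.5% and 92.1%, SMC1B 79.9% and 92.2%, and DAZL, whose body here includes its canonical start, 78.3% and 89.7%. MEIOB had 76.5% and 87.3%, HORMAD1 84.8% and 93.2%, and STAG3 82.8% and 89.4%. The lines were closest in SYCE1, at 73.4% and 76.4%, and SYCP3, at 92.8% and 95.3%. For SYCP3 the Wilson intervals of the share of calls, 91.5% to 94.5% and 94.2% to 96.7%, overlapped, and for SYCE1 (74.2% to 75.9% and 75.4% to 77.3%) they did as well. For the other 8 they were apart.

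The 50 kb on either side of each gene were also lower in OCI-AML3. The flanks of SYCP1 had 62.5% in OCI-AML3 and 80.6% in OCI-AML5, and those of SPO11 56.4% and 69.8%, the lowest in OCI-AML3 after SYCE1 (54.7% and 63.9%). Those of SYCP3 had 69.9% and 72.3%, and those of HORMAD1 88.8% and 91.6%. The difference was larger in the body than in the flanks for 8 genes, and smaller for SYCE1 and STAG3. For SYCP3 and SYCP1, among those 8, the gap was small. As OCI-AML3 minus OCI-AML5, SYCP3 had -2.53 percentage points in the body and -2.38 in the flanks. SYCP1 had -19.2 and -18.0. The regions are unlike, since the bodies lack the gene's own promoter window and the flanks were taken whole, with any promoters of other genes. Body and flanks were not compared over all protein-coding genes, so whether a larger body difference is usual was not tested.

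**Figure D3:**
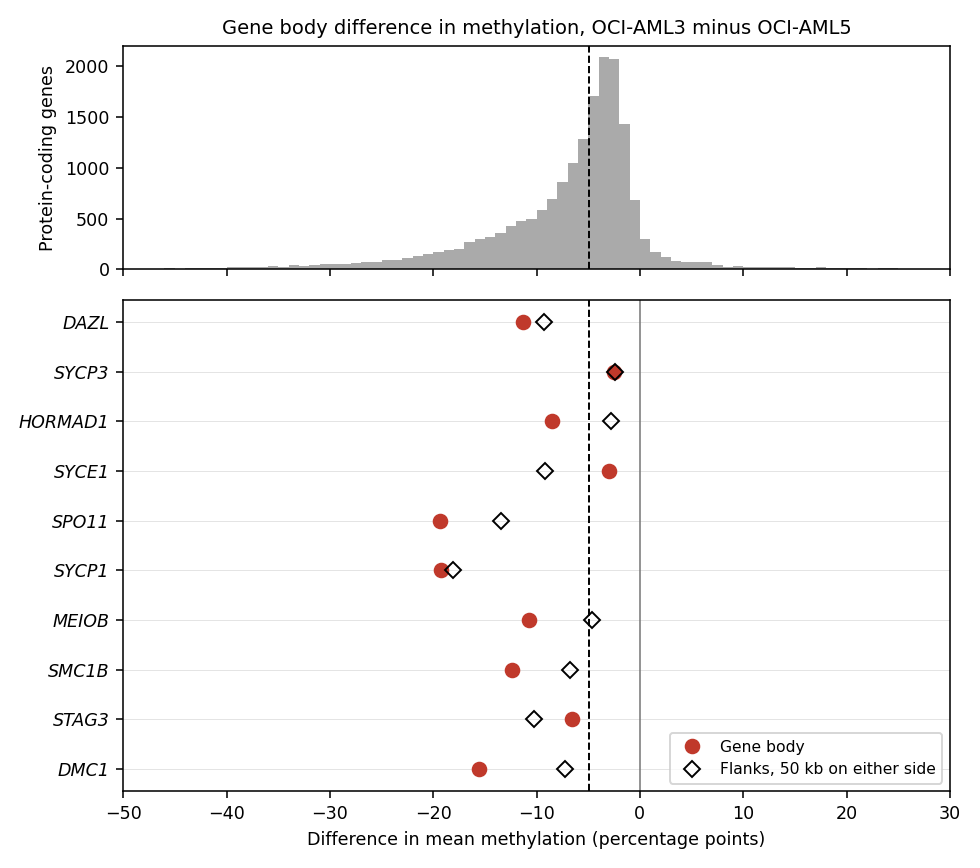
Difference in mean gene body methylation (x axis, percentage points, OCI-AML3 minus OCI-AML5). The upper panel is a histogram of protein-coding genes (y axis, number of genes; 75 of 18292 lie outside the plotted range) and the lower panel shows the body (filled) and the 50-kb flanks (open) of each of the 10 genes; the dashed line is the median of all genes, -4.93, and 8 of the 10 bodies lie to its left.

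Called CpG dinucleotides in the bodies were nearly all in the same direction. Of 3629 tested, 593 (16.3%) were lower in OCI-AML3 and 40 (1.10%) higher, against 13.1% and 2.98% over all gene bodies. DMC1, nearly free of methylation before its start in both lines, held long lower runs inside the gene. In intron 7, from 38946343 to 38946569, 7 consecutive CpG dinucleotides had 0% to 7.69% in OCI-AML3 and 71.4% to 100% in OCI-AML5. In intron 12, from 38928249 to 38928620, 11 had 0% to 47.4% and 69.6% to 100%. DAZL had a run of 10 about 60 kb before its canonical start, from 16706947 to 16707294, at 0% to 13.0% against 77.1% to 97.6%. HORMAD1 had a single run, 3 CpG dinucleotides in intron 2 at 2.13% to 17.0% against 77.5% to 94.1%. The levels of the lines did not overlap within any of these 4 runs, but each of their CpG dinucleotides had been picked for passing the test.

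Exons and introns of the canonical transcripts, outside the promoter windows, differed in the same direction wherever both held more than 10 usable CpG dinucleotides. In SMC1B 45 exonic CpG dinucleotides had 73.9% in OCI-AML3 and 93.6% in OCI-AML5, and 494 intronic ones had 80.4% and 92.1%. In DMC1 21 exonic ones had 82.0% and 91.6%, and 561 intronic ones 76.3% and 92.1%. In STAG3 the 88 exonic ones had 87.9% and 92.8% and the 348 intronic ones 81.5% and 88.4%.

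The rest of the meiotic machinery was read from a list of 40 other meiosis genes. At the most upstream TSS 20 of 40 had promoter means above 66% in both lines and 4 were below 20% in both. Over all protein-coding promoters 19.6% and 22.7% were. Their medians were 73.7% in OCI-AML3 and 77.1% in OCI-AML5, against 64.5% and 71.8% for the 10 genes and 30.4% and 37.1% for all protein-coding genes. The highest were TERB1, which ties telomeres to the nuclear envelope (94.4% and 94.2%), REC8, the meiotic kleisin of cohesin (93.5% and 94.6%), and STRA8, which drives entry into meiosis (91.7% and 92.9%). The lowest were MSH5, a crossover protein (4.88% and 7.42%), ZCWPW1, a histone reader (12.6% and 16.8%), and MND1, a partner of DMC1 (14.5% and 14.3%). The widest differences between the lines were at MCMDC2, CCNB1IP1 and MEIOC. MCMDC2, which acts in meiotic recombination, had 62.9% in OCI-AML3 and 88.4% in OCI-AML5. CCNB1IP1, a crossover factor, had 17.7% and 43.0%, and MEIOC, which sustains meiotic prophase, had 83.1% and 58.1%. Of the 40, 5 were lower by at least 20 points and 2 higher, against 8.61% and 1.79% of all protein-coding promoters.

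Counterparts of the 10 genes that mitotic cells use were nearly free of methylation at their starts. The promoters of the cohesin genes SMC1A, SMC3, STAG1, STAG2 and RAD21 and of RPA1, which encodes a single-stranded DNA-binding protein, were all below 20% within 500 bp of the canonical TSS, in both lines, with means of at most 0.578%. Below 20% is the common state, held there by 63.6% of all promoters and, among the 10 genes, by DMC1. Within 4 kb RPA1 was highest, at 26.2% in OCI-AML3 and 30.5% in OCI-AML5, followed by SMC3 (16.3% and 18.4%) and SMC1A (12.0% and 17.3%). STAG1 had 6.16% and 9.40%, RAD21 3.41% and 5.00%, and STAG2 1.20% and 1.43%. Set beside their meiotic relatives within 500 bp of the TSS, SMC1A had 0.248% and 0.563% where SMC1B had 42.8% and 43.5%. STAG1 had 0.0672% and 0.0448% where STAG3 had 32.9% and 36.0%. The values of SMC1B and STAG3 average unlike sides of the start. For SMC1B the 500 bp before it had 4.16% in OCI-AML3 and 10.9% in OCI-AML5, and the 500 bp after it 83.3% and 77.8%. For STAG3 they had 17.5% and 14.1% before and 66.2% and 83.2% after.

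Most of these promoters were rich in CpG. A promoter was called CpG-dense when the 500 bp on either side of its canonical TSS had over 50% G and C and a ratio of observed to expected CpG above 0.6, and 8 of the 10 genes met this, all but HORMAD1 and SPO11. Among those 8, DAZL, SYCP3 and SYCE1 were above 66% in both lines, where 3.05% of 12841 CpG-dense promoters were. Of the other meiosis genes 12 of 29 CpG-dense promoters were above 66%, and of the somatic counterparts 0 of 5.

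**Figure D4:**
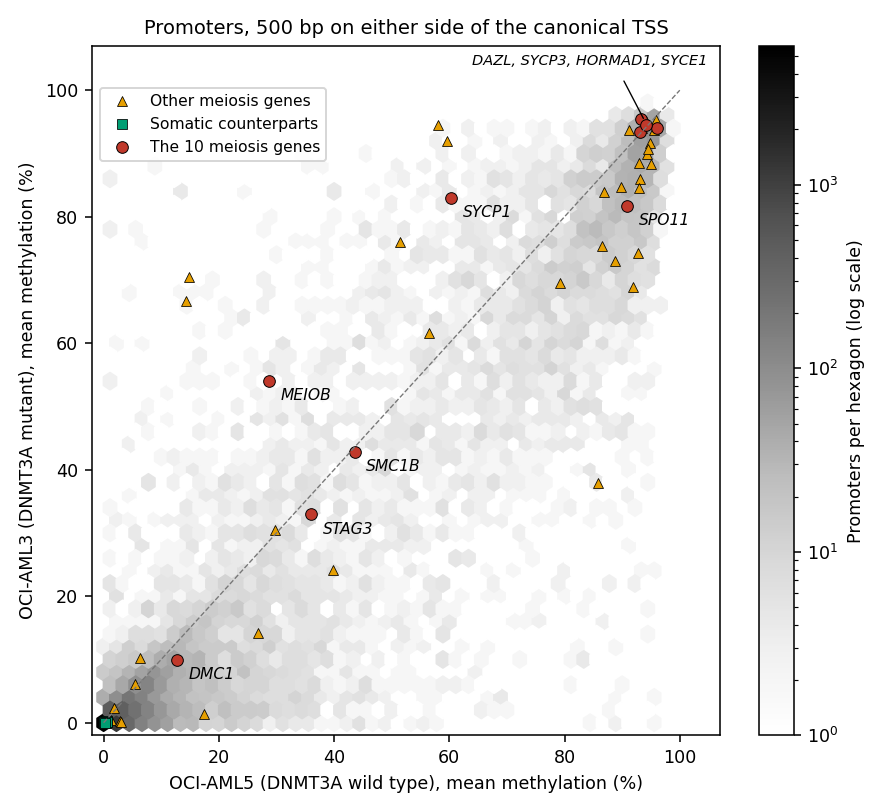
Mean methylation of protein-coding promoters within 500 bp of the canonical TSS in OCI-AML5 (x axis, %) and OCI-AML3 (y axis, %); grey hexagons count all promoters on a log scale, and the symbols mark the 10 meiosis genes, the other meiosis genes and the somatic counterparts. DAZL, SYCP3, HORMAD1 and SYCE1 lie in the upper right corner, SYCP1 and MEIOB above the dashed line of equality, and the somatic counterparts at the lower left, at or below 0.578%.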

How the data were processed

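DNA was taken from OCI-AML3 and OCI-AML5, 1 library per line. The authors treated sheared DNA with bisulfite, sequenced paired ends and, per the labels, aligned them to hg19 with Bismark and Bowtie 0.12.8. The deposited files hold, for each CpG, the counts of methylated and unmethylated calls with the strands combined. Whether duplicate reads were removed is not given in the sources used here. Listed positions were checked against GRCh37, where 99.8% of nuclear ones fell on the G of a CpG. The lines had a median of 27 and 30 calls per CpG.

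CpG dinucleotides with more than 5 calls in both lines were used, with GENCODE gene models. Means run over CpG dinucleotides, Wilson 95% intervals over calls, and regions of all genes needed 10 usable CpG dinucleotides. Each CpG was tested with a two-sided Fisher's exact test, adjusted by Benjamini-Hochberg over 24454751, with code tested on simulated data (Python 3.11.15, numpy 2.4.6, scipy 1.17.1, pandas 2.3.3). Intervals and tests cover the sampling of calls only. The genes, lists and tests were chosen with earlier results of these data known. Named were all 10 genes, 6 somatic counterparts (1 more of the planned list is not reported here) and, of 40 other meiosis genes, the 3 lowest, the 3 highest and the 3 that differed most. All 40 were found in the annotation, 1 by a synonym. Runs and motif CpG dinucleotides were picked out after their values were seen. Windows of 500 and 1000 bp, upstream DNA alone, the canonical TSS, at least 10 calls, shares of calls and other thresholds were tried.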

Additional observations from a re-analysis of the deposited data

How the results depend on the processing

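The median promoter difference of the 10 genes (OCI-AML3 minus OCI-AML5) was -2.68 percentage points. It was -7.43 by share of calls, -1.17 within 500 bp of the most upstream TSS and -0.254 within 500 bp of the canonical TSS, a setting chosen after seeing the data. The median gene body difference moved from -11.1 to -8.35 with the promoter window kept in. Promoters that differed by 20 points rose from 0 to 2 within 500 bp of either TSS and to 1 (SYCP1, lower in OCI-AML3) with upstream DNA alone, and 3 differed by 10 points. Bodies that differed by 20 points rose from 0 to 1 (SPO11) by share of calls, and 6 differed by 10 points. With a level of 80% in place of 66%, 2 promoters counted as methylated in both lines. Called promoter CpG dinucleotides fell from 161 to 92 within 500 bp of the canonical TSS, which holds fewer of them. The sign of the promoter difference changed under at least 1 setting for DAZL, SYCP1, SYCE1, HORMAD1 and MEIOB, and the SYCP1 difference ran from -29.5 to 22.6 points with the window. No gene body difference changed sign. Apart from what the settings' own construction shows, the cause of these shifts was not tested. No paired analysis was possible because each line has 1 library, and no replicate could be left out. At 27 and 30 calls per CpG, single levels are coarse, and C-to-T variants at CpG positions were not examined.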
